A study of Homo sapiens with 2 samples.

Results

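The genes of TFIIH, including those of its CDK-activating kinase module, are the subject here, with the ATF1 binding peaks found at them in HCT116 cells, a human colon carcinoma line. The 10 genes are CDK7, CCNH and MNAT1 of the kinase module, and ERCC3, ERCC2, GTF2H1, GTF2H2, GTF2H3, GTF2H4 and GTF2H5 of the core. The complex was chosen by the fold enrichment of the CCNH peak, among the highest of the ATF1 table, and the rule took every row of that table named for 1 of the 10 genes. It found 7 rows of 15064, and 59.3% of all protein-coding genes with a start in the reference are named in the table. The study made 1 chromatin immunoprecipitation (ChIP) library from HCT116 cells given ATF1 with a 3xFlag tag, and 1 input DNA library from HCT116 cells, made without antibody. Only the ChIP library's peak table was used, so there is no replicate and no statistical test. The labels do not say whether cells were pooled or how much tagged protein was made, and a peak table measures no expression, so the cell line was not checked against marker genes.

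TFIIH is a general transcription factor of RNA polymerase II. In its core, the XPB protein (from ERCC3) is a DNA translocase that helps open promoter DNA, and the XPD protein (from ERCC2) is a helicase that unwinds DNA around lesions during nucleotide excision repair. The kinase module joins CDK7, its cyclin (cyclin H, from CCNH) and the assembly factor MAT1 (from MNAT1), phosphorylates the tail of RNA polymerase II, and also activates the cell cycle kinases. ATF1 is a leucine zipper protein of the CREB family, which binds the cAMP response element (CRE), a palindrome of 8 letters, TGACGTCA, or its half-site TGACG.

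ATF1 peaks lay at the starts of 7 of the 10 genes, and the peaks differed widely in strength. CCNH, GTF2H3 and GTF2H1 had strong peaks, at 87.37-, 30.48- and 28.57-fold enrichment. By the same measure CDK7 and GTF2H4 were intermediate, at 11.77- and 11.15-fold, and GTF2H5 and ERCC3 were weak, at 5.69- and 4.94-fold. By the authors' score the order was not the same, with GTF2H5 (146.76) above GTF2H4 (118.83). No listed peak lay at the starts of MNAT1, ERCC2 and GTF2H2. A start peak here has its summit within 1 kb of the gene's start in RefSeq, whichever gene the table names for it. Of 15812 protein-coding genes with a start in the reference, 50.4% had one. Without CCNH, whose peak was the reason for the choice, the count was 6 of 9 genes. Fold enrichment and score are the authors' own values, and the background behind the fold is not given. The table has 1 row per gene name, so all counts and shares of start peaks given here can miss some.

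The DNA under these peaks shows where the half-sites lie. The sequences are the 250 bases before the gene start in RefSeq (GRCh38.p14), written 5′ to 3′ in the direction of transcription, with capitals marking each half-site (TGACG, or CGTCA where it is read on the other strand) and the full CRE. The first 4 belong to peaks with a half-site within 100 bases of the summit, GTF2H5 is a start peak without a half-site in the bases read, and ERCC2 has half-sites without a listed start peak. For GTF2H1 the window shown is that of HPS5, the gene that starts on the opposite strand and shares the peak.
CCNH (chr5:87412931-87413180, minus strand): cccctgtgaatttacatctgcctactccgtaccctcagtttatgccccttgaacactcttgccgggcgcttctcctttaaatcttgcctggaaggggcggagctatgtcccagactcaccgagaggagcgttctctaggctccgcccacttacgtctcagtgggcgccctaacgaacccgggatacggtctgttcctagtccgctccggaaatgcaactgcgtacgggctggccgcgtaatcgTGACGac
GTF2H3 (chr12:123633579-123633828, plus strand): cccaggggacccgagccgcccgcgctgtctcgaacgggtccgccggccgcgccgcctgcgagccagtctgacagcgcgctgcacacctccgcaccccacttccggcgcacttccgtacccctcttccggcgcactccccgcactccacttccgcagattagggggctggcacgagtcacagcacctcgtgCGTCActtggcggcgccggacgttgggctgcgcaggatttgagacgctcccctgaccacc
HPS5, beside GTF2H1 (chr11:18322141-18322390, minus strand): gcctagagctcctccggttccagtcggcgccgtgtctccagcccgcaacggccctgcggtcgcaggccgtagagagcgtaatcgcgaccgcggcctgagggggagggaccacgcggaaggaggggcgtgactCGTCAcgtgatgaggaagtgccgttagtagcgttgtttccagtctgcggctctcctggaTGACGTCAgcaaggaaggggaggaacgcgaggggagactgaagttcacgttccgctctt
CDK7 (chr5:69234545-69234794, plus strand): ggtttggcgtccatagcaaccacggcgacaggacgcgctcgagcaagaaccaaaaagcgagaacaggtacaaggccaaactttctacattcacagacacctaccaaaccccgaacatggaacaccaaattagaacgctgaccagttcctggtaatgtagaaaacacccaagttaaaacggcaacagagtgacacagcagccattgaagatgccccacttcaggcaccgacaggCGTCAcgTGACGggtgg
GTF2H5 (chr6:158168100-158168349, plus strand): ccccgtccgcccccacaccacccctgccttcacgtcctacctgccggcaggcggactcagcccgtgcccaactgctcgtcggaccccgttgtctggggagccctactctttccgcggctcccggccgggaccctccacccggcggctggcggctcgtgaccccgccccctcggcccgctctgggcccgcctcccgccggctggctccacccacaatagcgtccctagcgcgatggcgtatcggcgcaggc
ERCC2 (chr19:45370574-45370823, minus strand): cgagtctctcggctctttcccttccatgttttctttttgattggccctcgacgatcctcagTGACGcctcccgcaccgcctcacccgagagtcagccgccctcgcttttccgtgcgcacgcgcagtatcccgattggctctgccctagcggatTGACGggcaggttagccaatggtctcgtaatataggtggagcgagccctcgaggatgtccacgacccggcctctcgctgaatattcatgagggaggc

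In the kinase module, CCNH had the strongest peak, and no peak was listed at the start of MNAT1. The CCNH peak (hg38, chromosome 5, 87412314 to 87413565) was classed as exonic and held 227 tags (95% Poisson interval 198 to 259). Its fold enrichment ranked 7 in the whole table, next below RAD18, a ubiquitin ligase of damage bypass (88.56-fold), and next above AASDH (85.42-fold). This value chose the complex and is given as a description. The summit lay 16 bp upstream of the CCNH start in RefSeq, inside the longer gene of the authors' table, and a long non-coding RNA, LOC105379066, starts 52 bp upstream of CCNH on the opposite strand.

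The CDK7 peak, at the gene of the kinase itself, was also exonic (chromosome 5, 69234546 to 69235384). It held 65 tags (interval 50.2 to 82.8) over 839 bp, and its summit lay 14 bp downstream of the nearer of the gene's RefSeq starts. Its 11.77-fold enrichment was above that of 83.5% of all listed peaks, but its tag count was above that of only 26.8%. The peak listed under MNAT1, the assembly factor, was intronic (chromosome 14, 60838254 to 60839203) and lay 104105 bp inside the gene. It had 38 tags (interval 26.9 to 52.2) and 5.75-fold enrichment. The listed summit nearest to the MNAT1 start was 12878 bp away and is named for SIX4.

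Of the core enzymes, ERCC3 had a weak start peak and ERCC2 a peak near its far end. The ERCC3 peak (chromosome 2, 127293365 to 127294507, exonic) held 127 tags (interval 106 to 151) with 4.94-fold enrichment, which was above that of 21.5% of listed peaks. Its summit lay 33 bp downstream of the start. The ERCC2 peak (chromosome 19, 45351748 to 45353556, intronic) held 88 tags (interval 70.6 to 108) with 5.65-fold enrichment. It lay 18194 bp from the ERCC2 start and 2542 bp from the end of the gene. The table has 1 row per gene name, so it does not show whether MNAT1 or ERCC2 also had a peak at the start.

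Among the other core subunits, GTF2H1 and GTF2H3 had the strongest peaks, and GTF2H1, GTF2H3 and GTF2H5 each share a start region with a protein-coding gene on the opposite strand. GTF2H1 encodes the p62 subunit. Its peak (chromosome 11, 18321595 to 18323376, exonic) held 419 tags (interval 380 to 461), with a score above that of 98.0% of listed peaks. The summit lay 235 bp upstream of the GTF2H1 start in RefSeq and 192 bp from the start of HPS5, a gene of lysosome-related organelle formation. The authors' table places the GTF2H1 start at 18322269, so their exonic class rests on a longer gene model than the one in RefSeq.

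GTF2H3, which encodes the p34 subunit, is absent from the table as a gene name, but a peak lay at its start. The peak is listed under EIF2B1, which encodes a subunit of the translation factor eIF2B and starts 143 bp from GTF2H3 on the opposite strand. This peak (chromosome 12, 123633132 to 123634454, exonic in EIF2B1) held 540 tags (interval 495 to 588), the most of the 7 start peaks, and its score was above that of 99.4% of listed peaks. The summit lay 80 bp upstream of GTF2H3 and 63 bp from the start of EIF2B1. With a summit between the starts, the peak cannot be given to either gene alone. The same limit holds for the peak between GTF2H1 and HPS5.

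GTF2H5, the smallest subunit, whose mutations cause a form of trichothiodystrophy, was likewise absent as a gene name. A peak at its start is listed under SERAC1, which starts 88 bp away on the opposite strand (chromosome 6, 158167431 to 158168953). It held 216 tags (interval 188 to 247) with 5.69-fold enrichment, and the summit lay 8 bp from the SERAC1 start and 80 bp upstream of GTF2H5. This peak, too, cannot be given to either gene alone. GTF2H4, which encodes the p52 subunit that binds XPB, had an upstream peak (chromosome 6, 30907387 to 30908460) with 11.15-fold enrichment. It held 50 tags (interval 37.1 to 65.9), the fewest of the 7 start peaks, and its summit was 224 bp upstream of the start.

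GTF2H2, which encodes the p44 subunit, had no peak inside the gene or within 2000 bp of it. The nearest listed summit, named for BDP1, was 388022 bp from its start. GTF2H2 has copies on chromosome 5, and its promoter window matched that of GTF2H2C at 268 of 270 aligned bases (99.3%). GTF2H2C and the pseudogene GTF2H2B also had no listed summit. The handling of reads that map to several copies is not stated, so the missing peak does not show that these starts were free of ATF1.

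**Figure D1:**
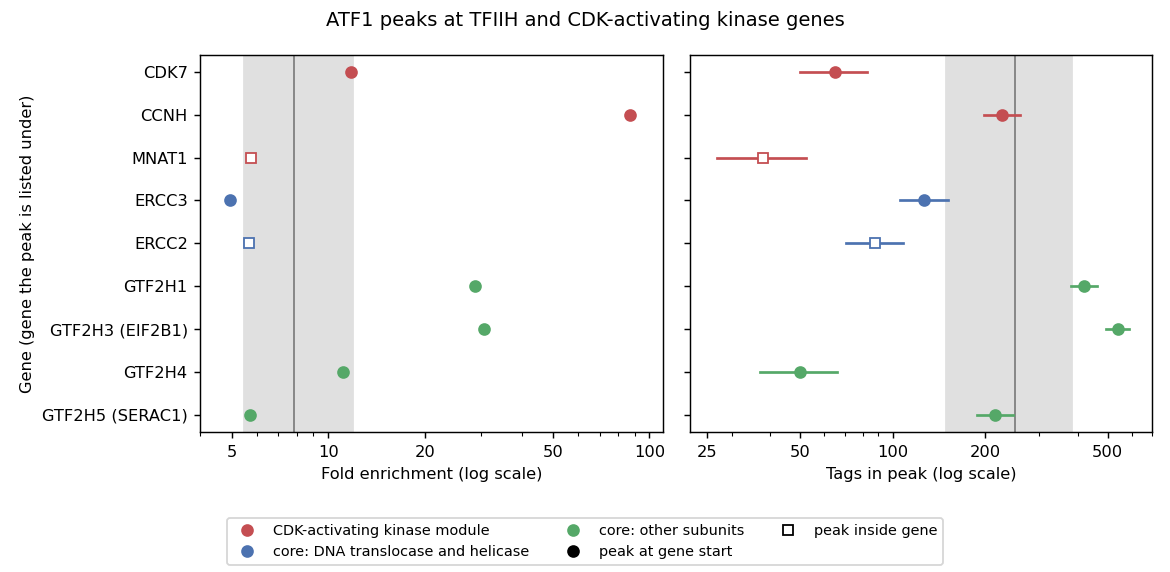
Fold enrichment (left) and tags (right), both on log axes, of the peak described for each gene, with the name the table lists it under in brackets where it differs; bars on tags are 95% Poisson intervals, the grey band spans the quartiles of all start peaks of protein-coding genes and the line is their median. CCNH stands at 87.37-fold with 227 tags, inside the tag band, whereas ERCC3 lies below the fold band; GTF2H2 had no peak to plot.

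All 7 start peaks had their summit within 235 bp of the gene start. Of these peaks, 5 are listed under the gene itself and 2 under a neighbour, whereas among all protein-coding genes with a start peak 18.1% had it listed under another name only. A start shared with an opposite-strand protein-coding gene within 1 kb was found for 3 of the 10 genes and for 13.6% of all protein-coding genes. Over the whole reference, 73.5% of genes with such a shared start had a start peak, against 46.7% of the others. These are descriptions of 1 library.

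**Figure D2:**
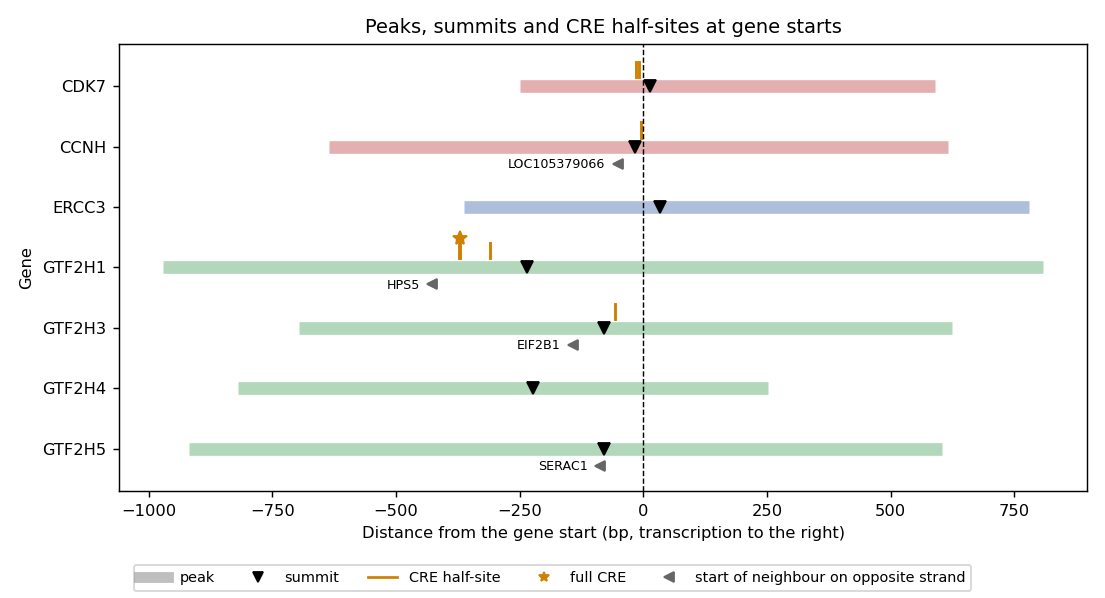
Peaks (bars), summits (triangles), half-sites and full CRE (orange marks, read in RefSeq promoter windows of the gene and its neighbour only) by distance from the gene start in bp, with transcription to the right; grey arrows are starts of neighbours on the opposite strand. All 7 summits lie within 235 bp of the start, and the CCNH, GTF2H1, GTF2H3 and GTF2H5 peaks also cover the start of a neighbour, which is non-coding at CCNH.

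The order of the genes depended on the measure used. The 7 start peaks had a median of 11.77-fold enrichment, against 7.81-fold for the 7214 peaks at protein-coding gene starts, and of 216 tags, against 250. With only the strongest start peak of each protein-coding gene, as taken for the 7, the median over all was 7.99-fold. Without CCNH, whose peak was the reason for the choice, the median of the other 6 was 11.46-fold. Start peaks at or above the table's median of 6.97-fold were found at 5 of the 10 genes and at 30.0% of all protein-coding genes. Start peaks in the top 10% of the table, from 14.87-fold, were found at 3 of the 10 (CCNH, GTF2H1 and GTF2H3) and at 8.76% of all. CCNH was chosen for this value, and without it the counts were 4 of 9 at or above the median and 2 of 9 in the top 10%.

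CCNH and GTF2H5 held nearly equal tags, 227 and 216 with overlapping intervals, yet their fold enrichments were 87.37 and 5.69. Their peaks were also similar in length, at 1252 and 1523 bp. The table does not hold the background from which the fold was computed, so the source of this gap was not tested. CDK7 and GTF2H4 showed the reverse of GTF2H5. They had few tags, 65 and 50, and fold enrichments just below the upper quartile of all start peaks (11.95).

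**Figure D3:**
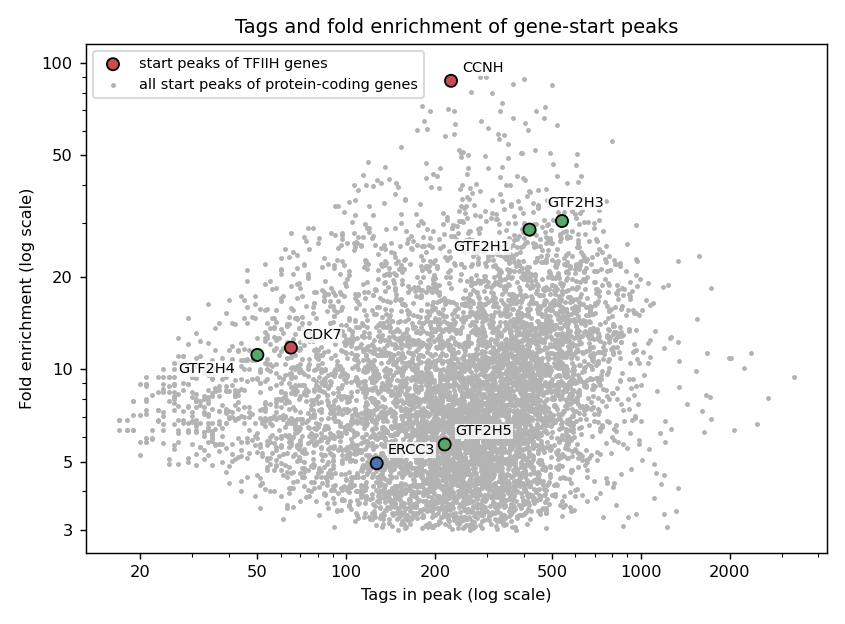
Tags and fold enrichment, both on log axes, for the 7 start peaks of TFIIH genes (large circles) and for all 7214 peaks at protein-coding gene starts (grey). GTF2H1 and GTF2H3 are high on both axes, CCNH and GTF2H5 have nearly equal tags at 87.37- and 5.69-fold, and CDK7 and GTF2H4 have few tags.

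Half-sites were found close to the summits of the strongest start peaks. The half-site TGACG, on either strand, was in the promoter window (250 bases before to 50 after the start) of 4 of the 10 genes, CDK7, CCNH, ERCC2 and GTF2H3, and of 34.5% of all protein-coding genes. The count is thus near the share over all genes, and it includes CCNH, whose peak was the reason for the choice. The full CRE was in the window of 0 of the 10 genes and of 3.0% of all. The same 4 genes had a half-site in the 200 bases before the start, as did 27.0% of all. The sites are given in 16-base stretches on the strand that reads TGACG, with the half-site or full CRE in capitals, because the letters after the half-site differ between genes.
CCNH (chr5:87412926-87412941, minus strand): atcgTGACGacagcgc
GTF2H3 (chr12:123633762-123633777, minus strand): caagTGACGcacgagg
GTF2H1 and HPS5 (chr11:18322188-18322203, minus strand): tggaTGACGTCAgcaa
GTF2H1 and HPS5 (chr11:18322250-18322265, plus strand): cacgTGACGagtcacg
CDK7 (chr5:69234771-69234786, minus strand): cacgTGACGcctgtcg
CDK7 (chr5:69234781-69234796, plus strand): cacgTGACGggtgggg
ERCC2 (chr19:45370751-45370766, minus strand): tcagTGACGcctcccg
ERCC2 (chr19:45370659-45370674, minus strand): ggatTGACGggcaggt

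The CCNH half-site was centred 11 bp from the summit, and 7 of the 8 letters there matched the full CRE. A half-site with at least 7 of the 8 letters was in the promoter window of no other gene of the 10 and of 9.35% of all protein-coding genes. The GTF2H3 half-site lay 22 bp from the summit and matched 5 of 8 letters. At CDK7 a pair of half-sites on opposite strands lay 22 and 29 bp from the summit, and between them they overlap an E-box, CACGTG, the site of other leucine zipper proteins such as USF. The E-box was in the window of CDK7 and GTF2H1 and of 10.9% of all protein-coding genes.

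At GTF2H1 the half-sites were in the window of HPS5 and not in that of GTF2H1 itself. The nearest was 76 bp from the summit and overlaps an E-box of the HPS5 window, centred 79.5 bp from the summit. The full CRE was centred 136.5 bp from the summit, toward HPS5. ERCC3, GTF2H4 and GTF2H5 had no half-site in the windows read. ERCC2 had half-sites starting 97 and 189 bases upstream of its start, where no peak is listed. A match is only a string of letters, and none of these sites was tested for binding.

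Among the start peaks that could be read, the half-site was more frequent near stronger summits. The TFIIH genes are set beside that. Of 5005 start peaks whose summit lay in a promoter window, 37.0% had a half-site within 100 bases of it. The share was 58.7% in the top quintile of fold enrichment (1036 of 1766 peaks, exact 95% interval 56.3 to 61.0%) and 18.8% in the second lowest (140 of 743, interval 16.1 to 21.8%). In the top quintile, CCNH, GTF2H3, GTF2H1 and CDK7 had one. The place of CCNH in this quintile follows from the choice of the complex. GTF2H4, in the same quintile, had none in the 127 of 201 bases around its summit that the windows hold. In the second lowest quintile, GTF2H5 had none in all 201 bases, and ERCC3 none in the 117 that were read. The windows run from 250 bases before to 50 after the start, so half-sites outside them were not read. This can only lower these shares, by amounts that can differ between quintiles and were not measured.

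**Figure D4:**
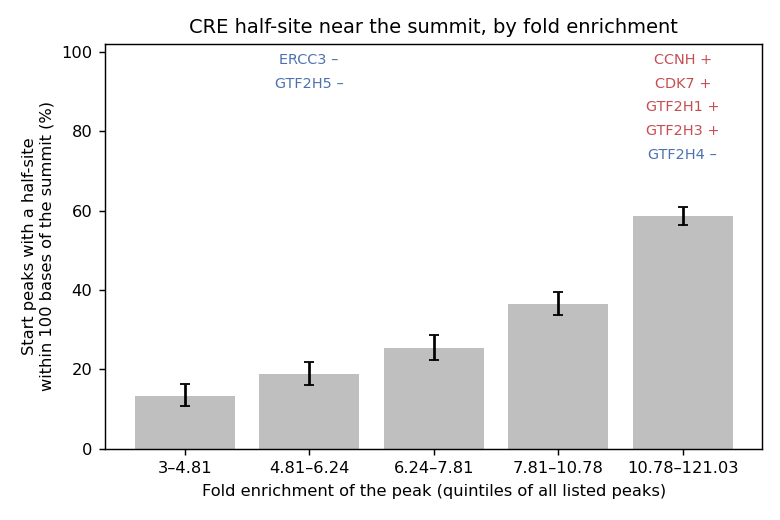
Percent of start peaks with a half-site within 100 bases of the summit (bars, with exact 95% intervals over peaks) by quintiles of fold enrichment of all listed peaks; gene names stand over the quintile their start peak is in, with + for a half-site and – for none in the bases read, which were incomplete for GTF2H4 and ERCC3. The share was 58.7% in the top quintile, where 4 of 5 TFIIH start peaks had one, and 18.8% in the second lowest, where 0 of 2 did. The 4 include CCNH, whose fold enrichment was the reason for choosing the complex.

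Other promoter motifs were spread among the genes. The ETS core CGGAAG was in the window of 6 of the 10 genes (CDK7, CCNH, ERCC3, GTF2H1, GTF2H2 and GTF2H3) and of 29.7% of all protein-coding genes. The GC box GGGCGG was in 7 of 10 and in 64.2% of all. The CCAAT box was in those of ERCC2 and GTF2H4, and in 42.1% of all. The TATA box TATAAA was in 0 of 10 and in 12.4% of all. Each motif was searched on both strands.

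Genes whose products work with TFIIH were read in the same way, beside the 50.4% of all protein-coding genes with a start peak. General transcription factors that assemble with it had one at 13 of 18 genes found in the reference (72.2%), with a median of 13.55-fold. The highest were TAF13 of TFIID (28.82-fold), GTF2E1, of the factor TFIIE that recruits TFIIH (25.03-fold, in a peak listed under RABL3), and TBP, the TATA-binding protein (20.96-fold). RNA polymerase II subunit genes had one at 5 of 8 (62.5%), with a median of 9.66-fold, and POLR2A, whose tail CDK7 phosphorylates, had 18.77-fold. POLR2H followed at 9.91-fold and POLR2C at 9.66-fold. Over all protein-coding genes with a start peak, the median of the strongest start peak was 7.99-fold.

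Genes listed as other transcription kinases, their cyclins and regulators had a start peak at 14 of 16 (87.5%, against 50.4% of all protein-coding genes). Their median was 14.3-fold, against 7.99-fold. The list also counts CDK20 (12.84-fold), a cell cycle kinase. LARP7, a part of the 7SK particle that holds the kinase P-TEFb inactive, reached 70.53-fold. CDK11A had 24.91-fold, a value that is uncertain because CDK11B is a near-identical copy, and CCNT1, the cyclin of P-TEFb, had 19.18-fold. A list of 4 substrates and partners of the CDK-activating kinase had 3 genes in the reference. Of these, 2 (66.7%, against 50.4% of all protein-coding genes) had a start peak. Among these cell cycle kinases, CDK4 had 11.05-fold and CDK6 5.5-fold, and CDK1 had no listed start peak.

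Nucleotide excision repair genes had a start peak at 14 of 17 (82.4%, against 50.4% of all protein-coding genes), with a median of 8.56-fold, against 7.99-fold. ERCC5, which encodes the XPG nuclease, had 25.65-fold, RFC1, a clamp loader subunit, 20.47-fold, and CETN2, a partner of XPC, 20.07-fold. Those without a start peak were XPC, ERCC6 and LIG1. Trichothiodystrophy genes outside TFIIH had one at 4 of 5 (80.0%), with a median of 17.26-fold. RNF113A, a splicing factor gene, was highest at 37.46-fold, followed by the tRNA synthetase genes TARS1 (22.30-fold) and AARS1 (12.22-fold).

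**Figure D5:**
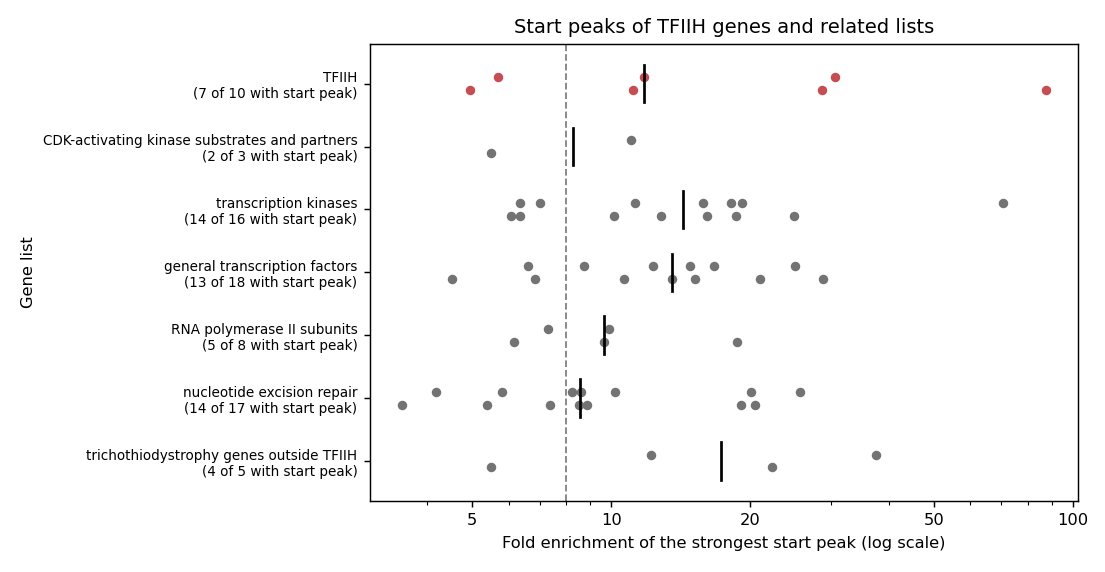
Fold enrichment (log axis) of the strongest start peak of each gene in the TFIIH list (red) and the related lists (grey), with list medians (black bars) and the median over all protein-coding genes with a start peak (dashed line, 7.99-fold). The TFIIH peaks range from 4.94 to 87.37-fold, and genes without a start peak are not plotted but are counted in the labels.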

How the data were processed

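The deposited table of the ChIP library gives each peak's position, length, summit, tags, score, fold enrichment, gene and class, per the file headers. Tags were deposited as raw counts. Fold enrichment was deposited as a ratio over a background that is not named, and the basis of the deposited score is not stated. Positions, summits and lengths are deposited in bp. CASAVA, Bowtie2 and bedtools were used with hg38, per the submitters' processing notes; the peak caller and its control were not given in the sources used here. Another 1 line without a position was left out. The read depth is unknown, so tags are not set against a total, and intervals cover counting error only.

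Gene starts and promoter windows came from RefSeq (GRCh38.p14, the same assembly as hg38); all 10 genes matched, and genes without a promoter entry were not used. Motifs were matched exactly, and overlapping matches were counted. The steps were tested on simulated peaks and sequences. Members and lists were chosen with earlier results of these data known. Named genes are all 10 members, the 3 strongest of each other list, the rank neighbours of CCNH and genes starting within 1 kb of a member. CDK20 and the copies CDK11B, GTF2H2B and GTF2H2C are named outside this rule. Genes without a listed start peak in 2 related lists, and SIX4 and BDP1, were added after their values were seen. The motifs other than the CRE were also chosen then. Python 3.11.15, numpy 2.4.6, pandas 2.3.3, scipy 1.17.1 and matplotlib 3.10.9 were used.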

Additional observations from a re-analysis of the deposited data

How the results depend on the processing

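The count of 7 genes with a start peak (50.4% of all protein-coding genes) was also 7 with a 500 bp window (46.8% of all), a 5 kb window (57.2%) or any overlap with the window (53.3%). It was 5 when only peaks at or above the median fold enrichment (30.0%), or only peaks listed under the gene itself (39.2%), were used. CCNH, whose peak was the reason for the choice, is in each of these counts. Without it the count of 7 was 6 of 9. The median percentile of the 7 listed peaks by fold enrichment, 81.3, was 53.9 by score, 33.6 by tags, 57.1 without CCNH and 71.6 against start peaks alone. With the start peaks of the genes whichever gene they are listed under, a setting chosen after seeing the data, it was 83.5, and 74.3 against start peaks alone. The count of 4 genes with a half-site was 0 for the full CRE, and 5 when windows of neighbours were read too, also chosen after seeing the data. It was 4 in the 200 bases before the start, and 4 within 100 bases of the summit, where GTF2H1 enters through the window of HPS5 and ERCC2 has no start peak. Counting older gene names left the listed genes at 7. The cause was not tested for any of these differences. No paired analysis was possible because there is 1 ChIP library. Its depth is unknown, so a missing peak does not show missing binding.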
